A study of Mus musculus with 22 samples.

Results

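Radial glia and astrocytes are 2 stages of 1 neural lineage, and 10 genes that are widely used to mark them were examined for chromatin marks and Polycomb proteins in mouse embryonic stem cells (ESC) and in neural progenitor cells (NPC) made from them. The 10 genes were chosen by name from the 24467 windows around transcription start sites (TSS) in the count table. The 5 early genes mark neural stem cells and radial glia (Nes, Vim, Fabp7, Prom1 and Slc1a3), and the 5 late genes mark astrocytes (Slc1a2, Gfap, S100b, Aqp4 and Aldh1l1). Binding and histone marks were measured by CUT&RUN, in which an antibody tethers a nuclease that cuts out the DNA around its target, so that reads pile up where the target sits. The antibodies were against SUZ12, JARID2 and MTF2, which are 3 subunits of Polycomb repressive complex 2 (PRC2), and against the histone marks H3K27me3 and H3K4me3. The table had 2 libraries for each of these 5 antibodies in each cell type, given by the series as biological replicates, and 1 library of control IgG per cell type, which makes 22 libraries.

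All groups came from C57BL/6 mouse ESC, carried the genotype label "untagged, Tir1" and were labelled untreated. ESC were kept without serum in N2B27 medium with LIF at 100 U/mL, CHIR99021 at 3 µM and PD0325901 at 1 µM, which holds them in a naive state. NPC were made from them by 72 h in bFGF (10 ng/mL) followed by 48 h in SAG (500 nM), an activator of Hedgehog signalling. No cell sorting was named, so the NPC libraries describe the culture as a whole, and a mark on fewer cells cannot be told apart from a weaker mark on every cell.

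In the embryonic brain, neuroepithelial cells first turn into radial glia, which divide to give neurons, and only later do the same progenitors turn to making astrocytes. Nestin and vimentin filaments, the fatty acid binding protein FABP7 and the glutamate transporter GLAST appear with the early progenitors, while GFAP, S100B, aquaporin 4 and ALDH1L1 come with the astrocyte programme. H3K4me3 sits at active and poised promoters, and H3K27me3, which PRC2 deposits, sits at silenced or poised ones. SUZ12 belongs to the core of PRC2, whereas MTF2 and JARID2 belong to its PRC2.1 and PRC2.2 forms, and CpG-rich promoters are the usual sites of PRC2 in ESC.

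The promoters of 5 of the genes are shown so that their CpG content can be set beside the chromatin values below. Each is the 250 bases upstream of the counted start, read 5′ to 3′ on the gene's own strand from RefSeq (GRCm38.p6, the mm10 build), and capitals mark each CpG. Nes, at chr3:87970843-87971092 on the plus strand, is the promoter with the most CpGs among the 9 members with a sequence here. Fabp7, at chr10:57784673-57784922 (plus), is an early gene below the median CpG count of all promoters. Slc1a3, at chr15:8710808-8711057 (minus), is a CpG-poor early gene. Gfap, at chr11:102897201-102897450 (minus), and Slc1a2, at chr2:102706188-102706437 (plus), are CpG-poor late genes.
Nes: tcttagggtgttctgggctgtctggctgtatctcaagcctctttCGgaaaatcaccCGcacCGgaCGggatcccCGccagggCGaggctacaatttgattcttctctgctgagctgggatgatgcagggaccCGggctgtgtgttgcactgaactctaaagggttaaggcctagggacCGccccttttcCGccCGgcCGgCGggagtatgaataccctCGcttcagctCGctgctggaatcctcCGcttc
Fabp7: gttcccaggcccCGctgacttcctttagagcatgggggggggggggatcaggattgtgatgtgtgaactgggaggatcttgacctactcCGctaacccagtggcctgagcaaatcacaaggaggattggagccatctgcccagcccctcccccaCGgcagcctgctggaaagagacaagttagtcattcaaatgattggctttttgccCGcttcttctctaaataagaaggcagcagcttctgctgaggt
Slc1a3: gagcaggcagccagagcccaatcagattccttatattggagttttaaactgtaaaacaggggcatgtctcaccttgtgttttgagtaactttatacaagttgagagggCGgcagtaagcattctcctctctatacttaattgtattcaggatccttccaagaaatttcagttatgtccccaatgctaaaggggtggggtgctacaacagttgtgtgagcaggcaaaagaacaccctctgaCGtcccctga
Gfap: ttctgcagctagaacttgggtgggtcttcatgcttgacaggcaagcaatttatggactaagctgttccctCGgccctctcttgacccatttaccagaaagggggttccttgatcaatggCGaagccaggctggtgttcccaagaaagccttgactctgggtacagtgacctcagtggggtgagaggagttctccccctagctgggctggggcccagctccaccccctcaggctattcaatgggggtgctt
Slc1a2: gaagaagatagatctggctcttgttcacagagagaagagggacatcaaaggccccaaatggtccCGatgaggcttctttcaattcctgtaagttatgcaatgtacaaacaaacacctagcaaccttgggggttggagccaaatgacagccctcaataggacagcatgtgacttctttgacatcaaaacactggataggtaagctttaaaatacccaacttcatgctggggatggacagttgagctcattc

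Each gene was measured in a window of 5000 bp centred on 1 start, so the window takes in the promoter and the first part of the gene, and none of the 10 windows overlapped another. In mm10 the windows lie at chr3:87968593-87973592 (Nes), chr2:13571811-13576810 (Vim), chr10:57782423-57787422 (Fabp7), chr5:44092269-44097268 (Prom1) and chr15:8708308-8713307 (Slc1a3). Those of the late genes lie at chr2:102703938-102708937 (Slc1a2), chr11:102894701-102899700 (Gfap), chr10:76251336-76256335 (S100b) and chr6:90548348-90553347 (Aldh1l1), and that of Aqp4 is on chromosome 18. For Prom1 the counted start is not the only one: RefSeq lists another at -6968 bp from it, outside the window, so the values for Prom1 describe the downstream start alone.

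Total counts over all windows ran from 298458 to 667898 for IgG and from 339591 to 857691 for the 3 PRC2 subunits. The H3K27me3 libraries held 647615 to 1569812 counts and the H3K4me3 libraries 3264267 to 8425292. Levels are given as counts per 1e6 window counts of the library (CPM), and 3 counts were worth 10.1 CPM in the shallowest library and 0.356 CPM in the deepest. The 2 NPC H3K27me3 libraries differed from each other more than any other pair did (chi-square per degree of freedom of their counts 6.67, against 0.998 to 2.39 elsewhere), so results on that mark are given with and without each of them. The lowest value, 0.998, was that of the 2 NPC JARID2 libraries, which differed by no more than sampling noise. The ESC JARID2 pair (1.02) and the NPC SUZ12 pair (1.03) were close to it. JARID2 was also fitted with its 2 NPC libraries counted as 1. The labelled cell types were checked against their markers. H3K4me3 fell at 9 of 10 naive pluripotency genes, with Nanog at -4.46 ± 0.11 and Pou5f1 at -4.26 ± 0.11 on the log2 scale (SE), and rose at the neural gene Sox1 by 1.24 ± 0.09. The other genes chosen as NPC markers, Pax6, Hes5, Msi1 and Nr2e1, belonged to a list of 17 neural stem and radial glia genes, of which 10 rose and 4 fell. Their H3K4me3 changes are not given one by one, so the rise of Sox1 does not stand for them. H3K4me3 rose at 8 of 10 neuron genes and fell at 1, and summed over the 10 it was 168 and 174 CPM in ESC and 335 and 341 CPM in NPC, and over 10 oligodendrocyte lineage genes 256 and 295 CPM in ESC and 180 and 195 CPM in NPC. It rose at 2 and fell at 5 of the 9 tested oligodendrocyte genes, and rose at 1 and fell at 6 of 10 endoderm and mesoderm genes. Summed over the latter it was 263 and 290 CPM in ESC against 298 and 299 CPM in NPC. None of these 30 genes was at 0, and the part of such cells in the results below was not tested.

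H3K4me3 changed in opposite directions at most early genes and at some late ones. It rose in NPC at 4 of the 5 early genes (Nes, Vim, Fabp7 and Slc1a3). It fell at 2 of the 4 late genes that could be tested (Aldh1l1 and Gfap), and none of those 4 rose. Of all 19776 tested windows 26.7% rose and 29.2% fell, 55.9% in all, so a change as such was common. The median log2 change was 1.70 for the early genes, -1.15 for the 4 tested late ones and -0.02 for all windows. Changes were tested with edgeR's quasi-likelihood test, a log2 change is NPC over ESC, and a window passed at a Benjamini-Hochberg adjusted p below 0.05.

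Nes encodes nestin, the intermediate filament protein of neural stem cells. Its window held 51.4 and 57.7 CPM of H3K4me3 in ESC and 174 and 194 CPM in NPC, a mean of 54.6 ± 4.51 against 184 ± 14.1 CPM (SD, n = 2). The change was 1.70 ± 0.09 on the log2 scale (SE, adjusted p = 7.01e-80). Both NPC libraries lay far above both ESC libraries, and Nes ranked above 67.2% and 70.6% of all windows in the ESC libraries and above 98.8% and 99.5% in the NPC ones.

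Vim encodes vimentin, the filament that radial glia share with mesenchymal cells. It had the highest H3K4me3 of the 10 genes in ESC, 71.5 and 75.8 CPM, and reached 172 and 183 CPM in NPC, without overlap. The change was 1.25 ± 0.09 (adjusted p = 7.22e-47), though with scaling factors from background windows alone it missed the threshold (1.32, adjusted p = 0.0583). In CPM, Vim was above its IgG level of 40.2 already in ESC.

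Fabp7, the brain lipid-binding protein of radial glia, had the largest change. Its H3K4me3 was 2.21 and 4.43 CPM in ESC, from 8 and 28 counts, and 34.6 and 38.9 CPM in NPC, from 113 and 328 counts. That is a change of 3.35 ± 0.21 (adjusted p = 4.10e-57), and the libraries of the cell types were far apart. In ESC the window was thus nearly free of the mark, and in NPC it ranked above 55.3% and 57.7% of all windows.

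Slc1a3 encodes GLAST, the glutamate transporter of radial glia and astrocytes. It had 16.8 and 17.2 CPM in ESC and 51.2 and 58.5 CPM in NPC, with a change of 1.70 ± 0.12 (adjusted p = 4.21e-41). Prom1, which encodes the membrane protein prominin-1 (CD133), was the early gene that did not pass: 0.791 and 2.76 CPM in ESC against 1.07 and 3.37 CPM in NPC, with overlapping libraries and a change of 0.23 ± 0.82 (adjusted p = 0.837). These values rest on 5 to 11 counts per library and on the downstream start, and the standard error leaves room for a change in either direction.

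**Figure D1:**
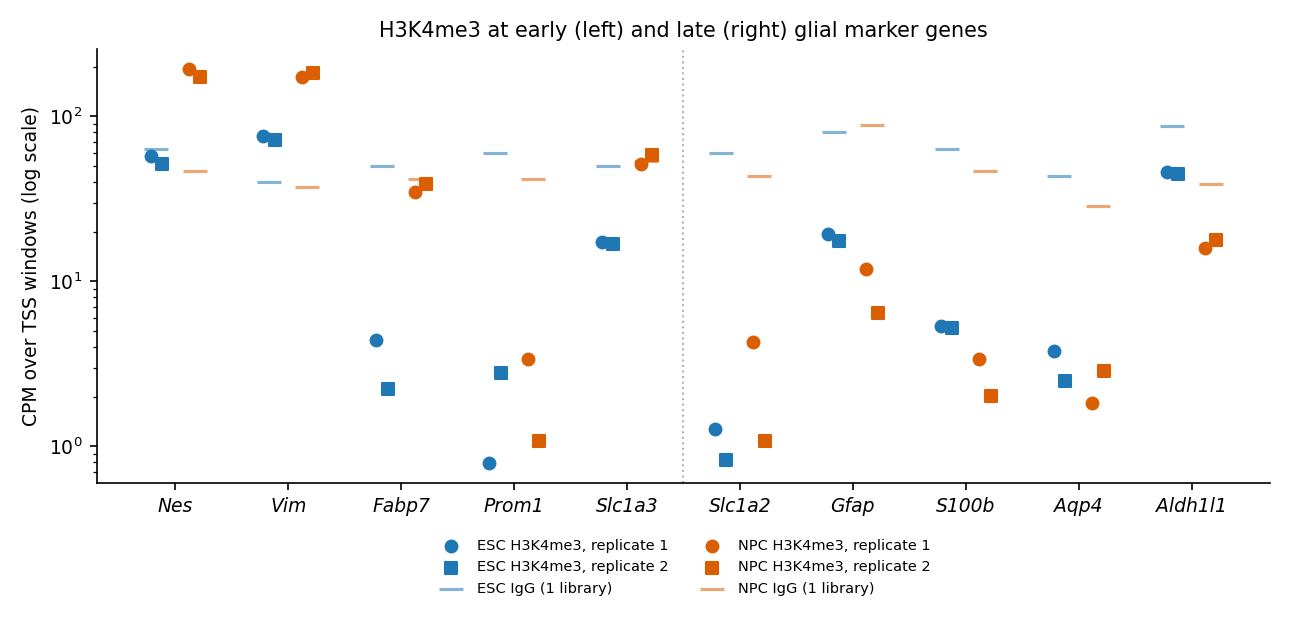
H3K4me3 in CPM (log scale) at each gene, early genes left of the dotted line and late genes right of it; circles and squares are the 2 libraries of a cell type and the bars are the single IgG library. In NPC, Nes (174 and 194 CPM) and Vim (172 and 183 CPM) stand above all other genes, while Prom1, Slc1a2, S100b and Aqp4 stay below 6 CPM in all 4 libraries.

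Among the late genes, Aldh1l1, a folate enzyme that labels astrocytes throughout the brain, had the most H3K4me3 in ESC, 45.0 and 46.2 CPM. It fell to 15.9 and 17.9 CPM in NPC, a change of -1.42 ± 0.13 (adjusted p = 4.43e-26), with no overlap. The IgG signal at the same window was also lower in NPC, at 38.9 CPM from 26 counts against 87.1 CPM from 26 counts in ESC, a ratio of 0.447 with a 95% interval from 0.249 to 0.801 that covers counting error only. Aldh1l1 was the only 1 of the 10 windows whose interval for IgG left out 1, and the part of this background in the fall was not tested.

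Gfap encodes the glial fibrillary acidic protein, the classical astrocyte filament. Its H3K4me3 was 17.7 and 19.5 CPM in ESC and 6.41 and 11.9 CPM in NPC, again without overlap, and the fall was -1.22 ± 0.22 (adjusted p = 8.67e-08). Both levels were well below the IgG signal there, 80.4 CPM in ESC and 88.3 CPM in NPC, which was the highest IgG signal of the members in NPC. The change at Gfap is therefore one between low levels of the mark.

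S100b, a calcium-binding protein of astrocytes, had 5.25 and 5.38 CPM in ESC and 2.02 and 3.37 CPM in NPC (-1.09 ± 0.58, adjusted p = 0.0998). Aqp4, the water channel of astrocyte endfeet, had 2.49 and 3.80 CPM against 1.84 and 2.85 CPM, with overlapping libraries (-0.40 ± 0.64, adjusted p = 0.632). Slc1a2 encodes GLT-1, the main glutamate transporter of mature astrocytes. With 3 and 8 counts in ESC (0.828 and 1.27 CPM) and 14 and 9 in NPC (4.29 and 1.07 CPM) it was too low to be tested. These 3 genes and Prom1 were the members nearly without H3K4me3 in both cell types.

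Against IgG, the picture was narrower. A window was called above IgG where a fit over all 22 libraries gave a log2 fold of at least 1 with an adjusted p below 0.05, and IgG, with 1 library per cell type, was assumed to vary like the other groups. For H3K4me3 this held at Vim alone in ESC (1.72 ± 0.44, adjusted p = 0.000596), and at Vim (3.17 ± 0.38, adjusted p = 9.52e-10) and Nes (2.90 ± 0.46, adjusted p = 1.82e-07) in NPC, against 36% of all windows in ESC and 38.9% in NPC. Fabp7 (0.76 ± 0.35) and Slc1a3 (0.97 ± 0.34) lay above IgG in NPC but under the fold required. At 8 of the 10 genes the fitted H3K4me3 was below IgG in ESC, and at 6 in NPC, Prom1 and all late genes among them. With library totals in place of TMM scaling, Vim in ESC was no longer called.

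H3K27me3, the product of PRC2, did not follow the pattern of H3K4me3. It fell at 5 genes, Fabp7 and Prom1 among the early ones and S100b, Slc1a2 and Aqp4 among the late ones, and rose at 1, Vim. Over all 21863 tested windows 23.5% fell and 22.9% rose, 46.4% in all. The median log2 change was -0.0027 for the early genes, -0.83 for the late ones and 0.12 for all windows. That last median became -0.05 under library totals and 0.40 under background factors, and was -0.71 in DESeq2, which also tested fewer windows (11101), while the direction of these 6 genes was the same in every setting in which they were tested.

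Fabp7 was the clearest of these. It had 72.6 and 73.5 CPM of H3K27me3 in ESC and 16.6 and 22.3 CPM in NPC, a mean of 73.1 ± 0.675 against 19.5 ± 4.01 CPM. The change was -1.62 ± 0.33 (adjusted p = 1.48e-05) with no overlap between cell types. Its fall passed in all 13 alternatives, with -1.20 when NPC replicate 1 was left out and -2.38 when NPC replicate 2 was. Fabp7 was also the only member at which a rise of H3K4me3 and a fall of H3K27me3 both passed.

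The other falls were at genes with little H3K4me3. S100b had 45.6 and 60.2 CPM in ESC and 32.1 and 9.56 CPM in NPC (-1.29 ± 0.31, adjusted p = 0.000212), and Prom1 had 52.8 and 30.9 CPM against 17.7 and 16.6 CPM (-1.12 ± 0.31, adjusted p = 0.00146). Slc1a2 had 47.6 and 52.5 CPM against 31.0 and 14.0 CPM (-1.05 ± 0.30, adjusted p = 0.00229). Aqp4 had 34.2 and 34.0 CPM against 23.3 and 12.1 CPM (-0.83 ± 0.33, adjusted p = 0.0267), a call that was lost in 9 of 13 alternatives.
At none of these 4 genes did the cell types overlap, but in CPM each ESC library was already below the IgG level of the window. The fit over IgG, with TMM scaling, put ESC slightly above IgG at each, and none was called. Its log2 folds were 0.31 ± 0.41 (S100b), 0.14 ± 0.47 (Prom1), 0.33 ± 0.44 (Slc1a2) and 0.26 ± 0.48 (Aqp4). At S100b, Slc1a2 and Aqp4 the NPC libraries were far apart, with replicate 2 the lower each time.

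Vim, with 16.6 and 18.5 CPM in ESC and 29.9 and 24.8 CPM in NPC, was the gene that rose (0.85 ± 0.34, adjusted p = 0.0332), and its level too was under that of IgG in CPM. In the fit over IgG it was at -0.60 ± 0.54 in ESC and 0.49 ± 0.41 in NPC, neither called. The call of a rise was lost in 7 of 12 alternatives, among them the replicate block (0.82, adjusted p = 0.0538), library totals (0.64, adjusted p = 0.458) and DESeq2 (0.70, adjusted p = 0.377). Nes (69.4 and 66.4 CPM against 55.4 and 74.5 CPM, 0.21 ± 0.40) and Slc1a3 (74.6 and 69.5 CPM against 52.1 and 67.5 CPM, -0.0027 ± 0.40) did not pass, and at Nes the libraries of the cell types overlapped. Aldh1l1 overlapped as well, with 39.4 and 26.3 CPM against 38.8 and 18.5 CPM (-0.15 ± 0.30). At Nes and Slc1a3, then, H3K4me3 rose while no change of H3K27me3 was detected.

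Gfap had the most H3K27me3 of the 10 genes in CPM, in both cell types, though over IgG in NPC Nes was as high (1.52 at Nes and 1.42 at Gfap in the fit over IgG). Its libraries held 202 and 239 CPM in ESC, above 97.7% and 99.2% of all windows, and 111 and 125 CPM in NPC, above 94% and 93.2%. Although the cell types did not overlap, the change of -0.65 ± 0.70 did not pass, with the largest standard error of the members. It passed with library totals (-0.90, adjusted p = 0.0270) and without NPC replicate 2 (-1.24, adjusted p = 0.0113).

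How many members passed for H3K27me3 depended on the setting, and so did the share of all tested windows that passed. That share was 46.4% in the edgeR fit above, 33.4% in DESeq2 and 48.6% at a minimum count of 30. It also moved when 1 library was left out. Without NPC replicate 1 there were 7 (5 falls, with Vim and Nes higher), without NPC replicate 2 there were 5 falls (Gfap in place of Aqp4), and without ESC replicate 1 the falls of Fabp7 and S100b remained. DESeq2 also gave 2, Fabp7 (-1.77, adjusted p = 0.0121) and S100b (-1.44, adjusted p = 0.0488). At a minimum count of 30, Fabp7 fell (-0.99) and Nes (0.84) and Slc1a3 (0.63) rose, with 8 members tested.

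**Figure D2:**
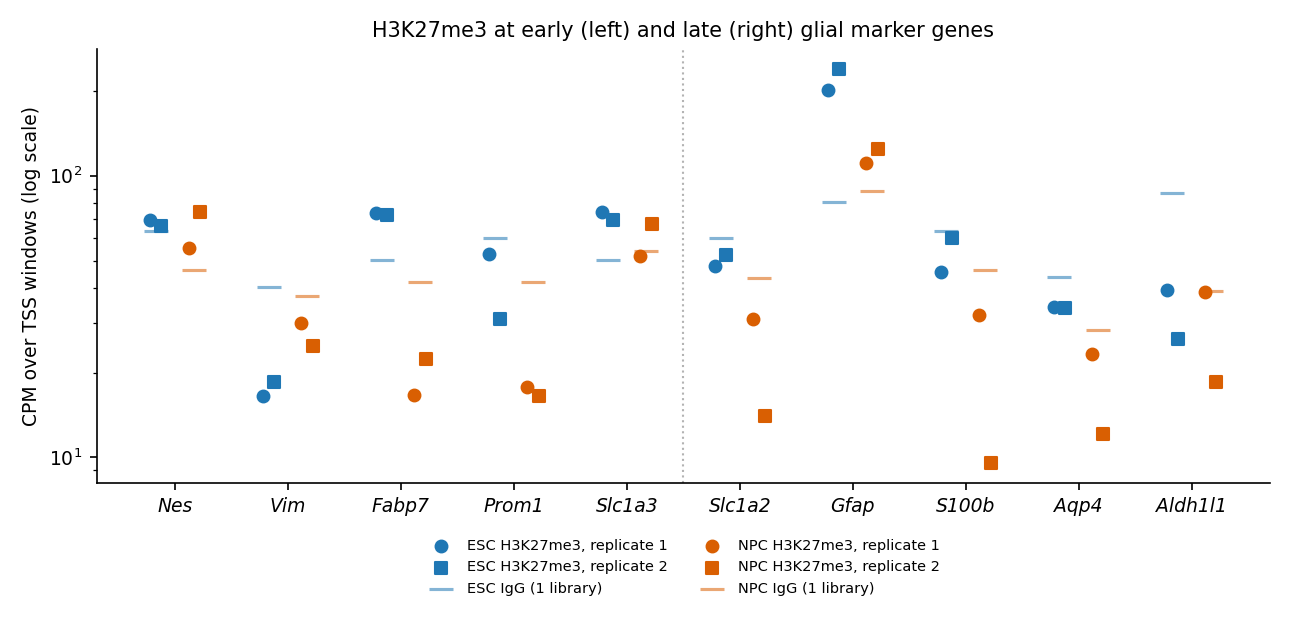
H3K27me3 in CPM (log scale) at each gene, drawn as for H3K4me3, with the IgG library of each cell type as a bar. Gfap stands above all other genes (202 and 239 CPM in ESC, 111 and 125 CPM in NPC), and Fabp7 drops from 72.6 and 73.5 to 16.6 and 22.3 CPM.

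Over IgG, H3K27me3 was called in ESC at Gfap (2.05 ± 0.43, adjusted p = 0.000220), Fabp7 (1.15 ± 0.43, adjusted p = 0.0260) and Slc1a3 (1.13 ± 0.45, adjusted p = 0.0355), which is 3 of 10 genes beside 22.5% of all windows. In NPC it was called at Nes (1.52 ± 0.46, adjusted p = 0.0110), Gfap (1.42 ± 0.38, adjusted p = 0.00407) and Slc1a3 (1.18 ± 0.36, adjusted p = 0.0117), beside 15.1%. So Gfap and Slc1a3 were called in both cell types, Fabp7 in ESC and Nes in NPC. These calls lean on the scaling: with library totals only Gfap in ESC was left, as with a rule without a model that asks both libraries for the fold. A fit of the antibody with IgG alone called none, and none was called in NPC without NPC replicate 2.

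Nes in NPC was the only case in which both marks were called over IgG at the same gene, beside 2.29% of windows in ESC and 4.05% in NPC. Its H3K4me3 call held in all 7 alternatives and its H3K27me3 call in 2 of 7. The libraries cannot say whether the 2 marks sat on the same chromosomes or in different cells of the culture.

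**Figure D3:**
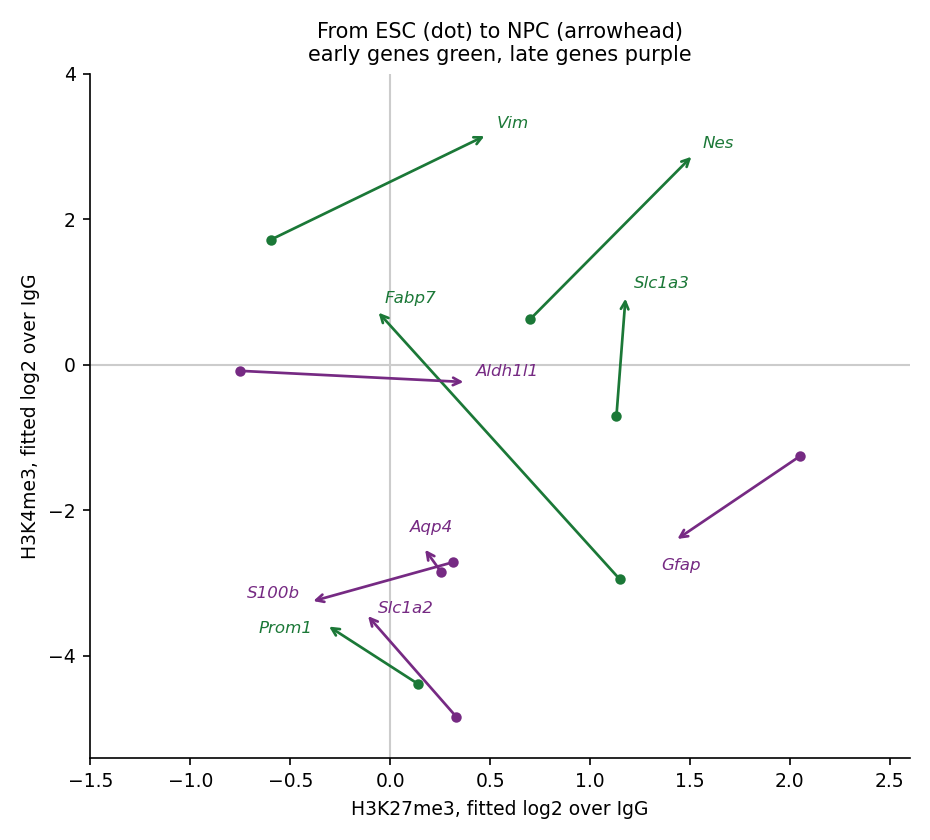
Fitted log2 fold over IgG of H3K27me3 (horizontal axis) and H3K4me3 (vertical axis) for each gene, with a dot for ESC and an arrowhead for NPC, early genes in green and late genes in purple. The arrows of the early genes Nes, Vim, Fabp7 and Slc1a3 point up, that of Fabp7 also far to the left, and that of the late gene Gfap points down and to the left.

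The PRC2 subunits themselves were not detected above IgG at any of the genes. Of the 60 values (10 genes, 3 subunits, 2 cell types) 0 reached a log2 fold of 1, 23 were above 0, and they ran from -1.62 (Prom1, MTF2 in ESC) to 0.89 (Vim, JARID2 in NPC). The joint edgeR fit called 0 members for SUZ12, JARID2 and MTF2 in either cell type, as did an unadjusted p under 0.05 with that fold and the rule without a model. Over all windows 5.67% were called for SUZ12 and 9.1% for MTF2 in ESC, and 0% for JARID2 in ESC and for each of the 3 in NPC. By the unadjusted p with that fold, 2830 (SUZ12), 560 (JARID2) and 3669 (MTF2) of 23836 windows were called in ESC. In NPC these were 495, 140 and 650. Some rules with an adjusted p or without a model also called windows in NPC, for SUZ12 from 21 with IgG of both cell types to 433 without a model, but 0 members.

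Nes came nearest in ESC, with 74.6 and 83.3 CPM of SUZ12 and 82.9 and 75.2 CPM of MTF2 beside 63.7 CPM of IgG. In the fit these were 0.65 and 0.75 on the log2 scale over IgG. At Gfap, where H3K27me3 was highest in CPM, SUZ12 in ESC was 58.3 and 55.5 CPM against 80.4 CPM of IgG, a log2 fold of -0.14, and MTF2 was at 0.06 and JARID2 at 0.04. Aldh1l1 was the only member below IgG with an adjusted p under 0.05, for SUZ12 in ESC (-1.25, adjusted p = 0.0477), with 30.3 and 25.9 CPM against the high IgG level of 87.1 CPM. The subunit libraries held 6 to 69 counts at the members shown here, so smaller enrichments were not detectable at this depth.

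**Figure D4:**
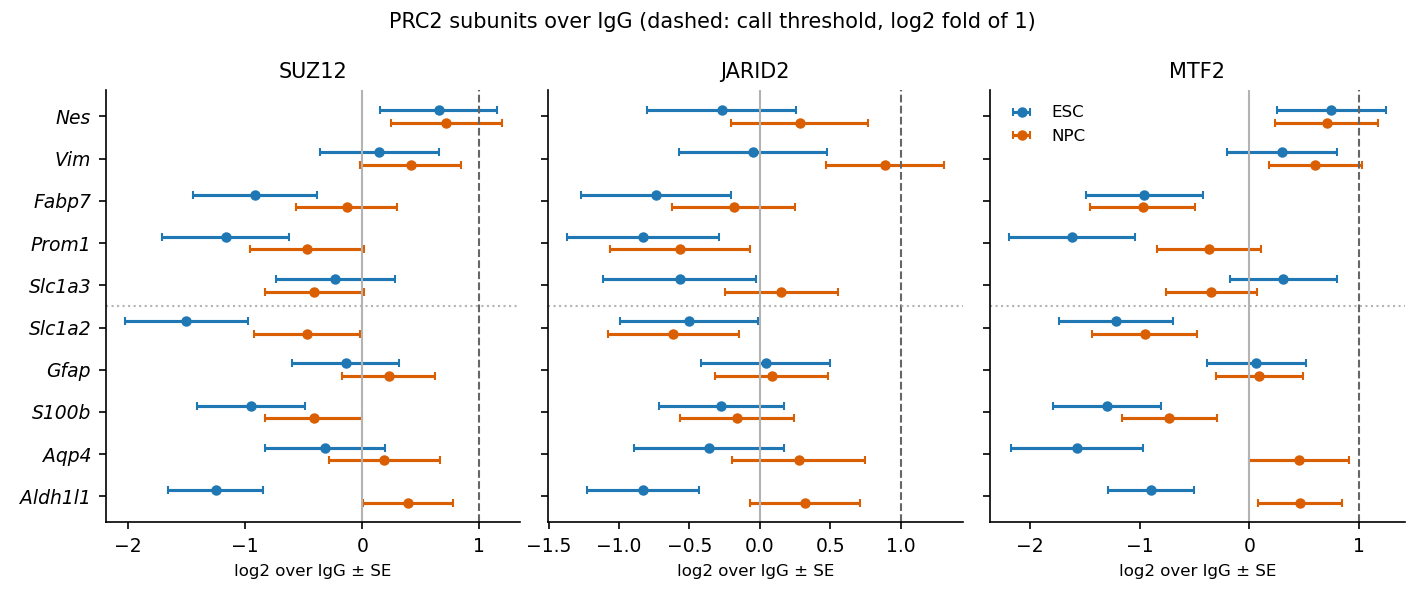
Fitted log2 fold over IgG (± SE) of SUZ12, JARID2 and MTF2 at each gene in ESC (blue) and NPC (orange), with the fold needed for a call as a dashed line. All 60 points lie left of that line, the highest being JARID2 at Vim in NPC (0.89).

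Between the cell types SUZ12 passed at 0 of 10 members, beside 16.1% of windows (2.97% higher and 13.1% lower), with edgeR. DESeq2 gave an adjusted p to 2 of the members, Nes and Gfap, and called 0 of them. At an unadjusted p under 0.05 there was 1 member, Gfap, beside 5514 of all 21238 tested windows. SUZ12 at Gfap went from 58.3 and 55.5 CPM to 85.9 and 109 CPM (0.51 ± 0.24, adjusted p = 0.139). Gfap passed with library totals (0.76, adjusted p = 0.00980) and at a minimum count of 30 (1.35, adjusted p = 6.70e-07), where 2 members were tested. The share of windows called higher moved too, from the 2.97% above to 11.3% with library totals and 24% of 3696 at that minimum. In DESeq2 it was 0.272% of 4043. The largest fitted SUZ12 differences at the other members were 0.58 ± 0.41 at Slc1a2 and 0.54 ± 0.38 at Fabp7, within the error of libraries this shallow.

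JARID2 passed at 0 of 10 members in edgeR, beside 0.83% of windows (0.0792% higher and 0.75% lower). DESeq2 gave an adjusted p to 1 member, Gfap, which did not pass. At an unadjusted p under 0.05 there were 2 members, beside 1962 of all 21456 tested windows. They were Vim, with 32.7 and 42.8 CPM in ESC and 75.1 and 58.9 CPM in NPC (0.82 ± 0.31, adjusted p = 0.303), and Slc1a3, with 32.7 and 33.3 CPM against 62.9 and 53.0 CPM (0.80 ± 0.33, adjusted p = 0.387). In both the NPC libraries lay above the ESC ones. H3K4me3 rose at both, and also at Nes and Fabp7, where the fitted JARID2 change was 0.05 and 0.27. A link between JARID2 and H3K4me3 was not tested.

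MTF2 passed at 1 of 9 tested members, Aqp4, beside 12.2% of windows (3.28% higher and 8.89% lower). Aqp4 had 7.21 and 16.7 CPM in ESC, from 6 and 8 counts, and 29.6 and 42.5 CPM in NPC, from 13 and 22 counts, and rose by 1.46 ± 0.44 (adjusted p = 0.0161). The call was lost with background factors and the replicate block (adjusted p = 0.0823) and when any of 3 of the 4 libraries was left out. DESeq2 gave Aqp4 no adjusted p. In NPC the level was close to the 28.4 CPM of IgG. Fabp7 was too low for MTF2 to be tested.

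Where the change of H3K27me3 was set against that of SUZ12 in 1 fit, it was lower at 4 members beside 30.9% of windows (16.7% higher and 14.2% lower). They were Fabp7 (-2.17 ± 0.49, adjusted p = 0.000301), Slc1a2 (-1.65 ± 0.50, adjusted p = 0.00772), S100b (-1.41 ± 0.47, adjusted p = 0.0156) and Prom1 (-1.33 ± 0.50, adjusted p = 0.0317). At each of them H3K27me3 had fallen while the fitted SUZ12 difference was between 0.09 and 0.58 and did not pass. At Slc1a2, S100b and Prom1 neither H3K27me3 nor SUZ12 was called above IgG in either cell type. DESeq2 kept Fabp7 alone, and so did the fit without NPC SUZ12 replicate 2. Without ESC SUZ12 replicate 1 Fabp7 and S100b were kept.

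For JARID2 against MTF2 the difference passed at 0 of 10 members in edgeR, beside 3.44% of windows (2.78% higher and 0.662% lower), and in DESeq2 at 0 of 2. At an unadjusted p under 0.05 there were 2, beside 4399 of all 22654 tested windows. They were Slc1a3 (1.38 ± 0.47, adjusted p = 0.0669) and Aqp4 (-1.40 ± 0.61, adjusted p = 0.171). Slc1a3 passed without ESC MTF2 replicate 2 (1.60, adjusted p = 0.0179) and without NPC MTF2 replicate 2 (1.98, adjusted p = 0.0185).

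**Figure D5:**
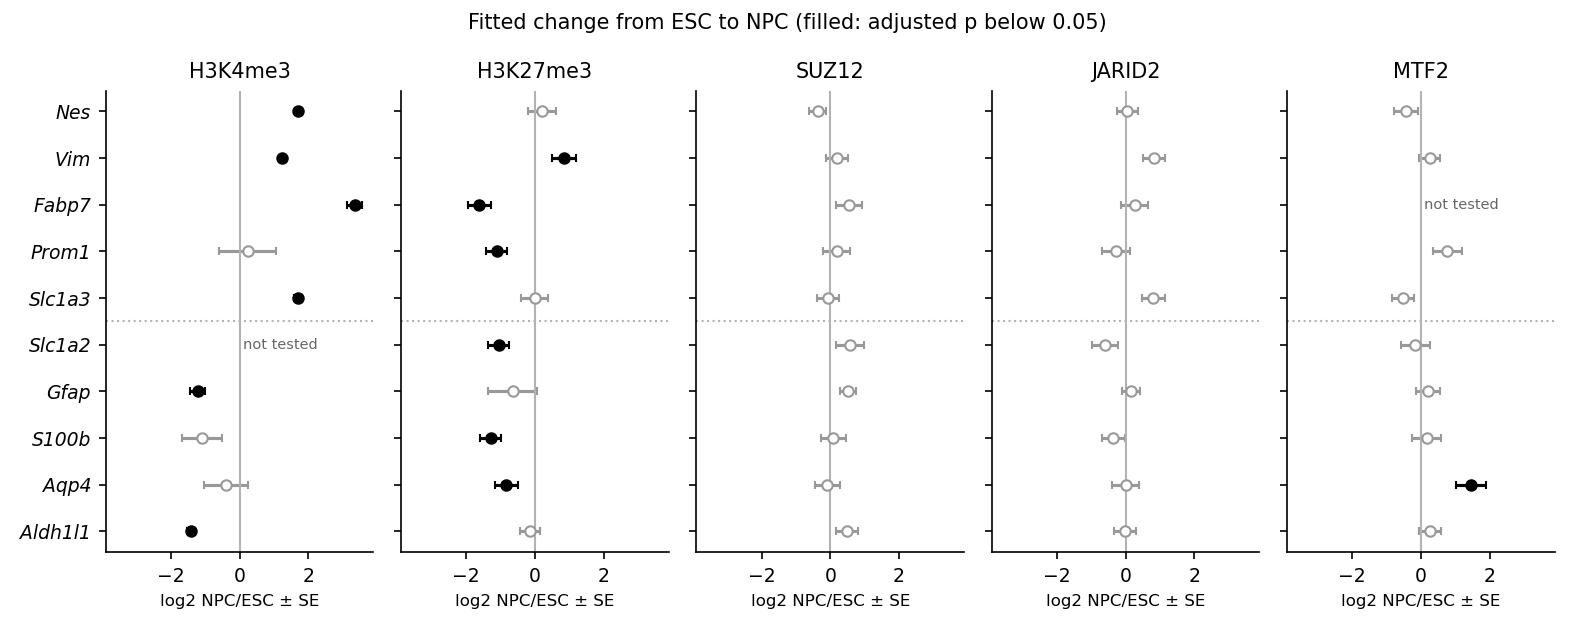
Fitted log2 change from ESC to NPC (± SE) of each antibody at each gene, with filled black points where the adjusted p was below 0.05 and the dotted line between early and late genes. H3K4me3 has 4 filled early genes above 0 and 2 filled late genes below 0, and across SUZ12, JARID2 and MTF2 the only filled point is Aqp4 for MTF2.

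The promoters differed widely in CpG content. In the 300 bases from 250 upstream to 50 downstream of the start, RefSeq's sequence had 18 CpGs at Nes, 11 at Vim, 9 at Aldh1l1 and 6 at Fabp7. There were 4 at the counted start of Prom1, 3 each at Slc1a3, Gfap and S100b and 1 at Slc1a2, against a median of 12 (quartiles 3 and 24) over the 15643 counted starts with a promoter in the table. The sequence used for Aldh1l1 belongs to a start at -55 bp from the counted one. The other start of Prom1 had 10.

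Across the 9 genes with a sequence, the 3 with the most CpGs were also the 3 with the most H3K4me3 in ESC. Spearman's rho between CpG count and mean H3K4me3 was 0.712 in ESC and 0.678 in NPC (Pearson's r 0.806 and 0.851), and for H3K27me3 -0.322 and 0.119 (r -0.253 and 0.0637). These are descriptions over genes that share their libraries. Gfap, with the most H3K27me3 in CPM, and Slc1a3, with about as much as Nes, both had 3 CpGs.

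A search for 3 motifs covered both strands of the same 300 bases. TATAA, the letters of a TATA box, was found at Vim and Slc1a3 and in 23.7% of all promoters. TTCNNNGAA, the letters of a STAT element, was found at Slc1a3 and Gfap and in 8.22%, and TGGGAA, the core letters bound by the Notch effector RBPJ, at Fabp7, Gfap, S100b and Aldh1l1, and at the other Prom1 start, and in 24.7%. TTCNNNGAA and TGGGAA can overlap by some of their letters. A match gives letters only and not a bound site.

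Other genes of the same 2 stages, from lists put together for these tissues, had H3K4me3 medians above that of all windows. Over all tested windows 26.7% rose and 29.2% fell. Of 17 other neural stem and radial glia genes 10 rose and 4 fell (median 0.61), with the smallest p at Ednrb, an endothelin receptor, at 2.11 ± 0.11. Of 17 tested other astrocyte genes 5 rose and 4 fell (median 0.24), with the smallest p at Apoe, the lipid carrier, at -1.76 ± 0.09, where H3K27me3 rose by 3.04 ± 0.39. The median of these astrocyte genes was above that of all windows, whereas that of the late members was below it. Among regulators of gliogenesis, such as the SOX9 and NFI transcription factors and the LIF and STAT pathway, 10 rose and 3 fell of 16 tested (median 0.35), with Sox9 at 1.66 ± 0.09.

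Relatives of the members had medians below that of all windows, where again 26.7% rose and 29.2% fell. Of 13 other intermediate filament genes 1 gained and 9 lost H3K4me3 (median -0.47), among them Nefh, a neurofilament gene, at -0.75 ± 0.10. Of 25 tested paralogs of the transporter, lipid-binding, prominin and aquaporin genes 3 rose and 13 fell (median -0.66), with the smallest p at Aqp3, an aquaporin, at -3.13 ± 0.10.

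For H3K27me3, 22.9% of all tested windows rose and 23.5% fell. Of the 17 other radial glia genes 4 rose and 3 fell, with Sox2 at 2.52 ± 0.41, and of the 18 astrocyte genes 1 rose and 5 fell. Of the gliogenic regulators 4 rose and 0 fell of 17, with Nfib, a transcription factor of astrocyte formation, at 5.17 ± 0.74. Of the other intermediate filament genes 2 rose and 2 fell of 13, with Bfsp2, a lens filament gene, at -1.19 ± 0.30, and of the paralogs 6 rose and 8 fell of 26, with Aqp3 at 3.43 ± 0.52.

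SUZ12 fell at genes in each of these 5 lists, beside the 13.1% of all windows at which it was lower. It fell at 5 of 17 radial glia genes (Cdh2, which encodes N-cadherin, -2.40 ± 0.27) and at 4 of 18 astrocyte genes (Fgfr3, a growth factor receptor, -2.00 ± 0.23), where 1 rose. It fell at 7 of 17 gliogenic regulators (Sox9, -2.70 ± 0.24), where 1 rose, and at 6 of 13 other filament genes (Nefl, -2.09 ± 0.24), and of 26 paralogs 1 rose and 1 fell (Aqp5, -0.72 ± 0.23). MTF2, lower at 8.89% of all windows, fell at 5 radial glia genes (Cdh2, -2.03 ± 0.50), 3 astrocyte genes (Slc4a4, a bicarbonate transporter, -1.75 ± 0.41), 7 gliogenic regulators (Cntfr, the CNTF receptor, -1.72 ± 0.39), where 1 rose, and 2 filament genes (Nefm, -1.26 ± 0.39), and of 23 tested paralogs 2 rose (Aqp3, 1.51 ± 0.36) and 1 fell. JARID2, lower at 0.75% of all windows, fell at 1 gene each of the radial glia (Nr2e1, -1.62 ± 0.23), gliogenic (Sox9, -1.13 ± 0.25) and filament lists (Krt8, -1.39 ± 0.30).

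The windows with the profile most like each member were sought over the 10 group means of log2 CPM over IgG, by the root mean square difference. Nes was nearest to Pi4k2b (0.31) and Tox3 (0.36), Vim to Calm2 (0.20) and Asb15 (0.20), and Slc1a3 to Chrnb4 (0.26) and Mgat5b (0.28). Fabp7 had the most distant neighbours, Clvs1 (0.39) and Rimbp2 (0.45). Among the late genes Gfap was nearest to Atp2c2 (0.22) and Pnmt (0.22), and Aldh1l1 to Serping1 (0.30) and Dleu7 (0.33). The low profiles of the others were nearest to F13a1 and Tas2r114 (Prom1), Apoa4 and Ifna15 (Slc1a2), Rgs21 and Pom121l12 (S100b), and Skint8 and Prl8a8 (Aqp4), at 0.18 to 0.27. None of these windows was that of another member.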

How the data were processed

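Per the file itself, the authors deposited raw counts, 1 whole number per TSS window and library. Per the submitters' processing notes, the authors used Bowtie2 2.3.4.3, Picard 2.19 and the mm10 build. How reads were filtered, deduplicated and counted is not given in the sources used here. Per the labels' protocols spike-in DNA was added, but spike-in counts were not used here, so a change shared by all windows was not measured. Samples were grouped by antibody and cell type.

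NPC was tested against ESC per antibody over 4 libraries with edgeR 4.0.16 (R 4.3.3): TMM scaling, filterByExpr at a minimum count of 10 and quasi-likelihood tests, adjusted over all tested windows. Differences between antibodies were interaction terms over 8 libraries, and folds over IgG came from 1 fit of 22. The log2 ratios behind the nearest windows used a prior count of 2. Scripts were tested on simulated data. Alternatives were DESeq2 1.42.0, other scaling, filters, replicate block, fits and thresholds, each library left out, and, chosen after seeing the data, a crossed replicate block for MTF2 and H3K27me3. The p-values rest on the spread between the 2 libraries of a group, with each window's spread drawn towards a trend over all windows. IgG, with 1 library per cell type, took its spread from the other groups. PCR copies of a molecule are not independent of each other, so intervals cover counting error only.

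The text names all members, the 2 windows nearest to each, the gene of smallest p in each list where it passed, Nanog, Pou5f1, and Sox1 with the other genes chosen as NPC markers. The members and lists were chosen with earlier results of these data known. List genes are described by counts and were given no test of the list.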

Additional observations from a re-analysis of the deposited data

Results flagged for a closer look

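At 4 genes the change from ESC to NPC differed between H3K27me3 and SUZ12 by the test of the difference itself, and at each the change of H3K27me3 was the lower. The differences on the log2 scale were -2.17 at Fabp7, -1.65 at Slc1a2, -1.41 at S100b and -1.33 at Prom1. In every case the fitted change of H3K27me3 was below 0 and that of SUZ12 above 0, and SUZ12 was not called above IgG at any of the 4 in either cell type. H3K27me3 was called above IgG at Fabp7 in ESC alone, and at Slc1a2, S100b and Prom1 in neither cell type. The fit gives both antibodies 1 shared spread per window, although the NPC H3K27me3 libraries differed more from each other than the SUZ12 ones did (chi-square per degree of freedom 6.67 against 1.03).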

How the results depend on the processing

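The H3K4me3 changes were the steadiest, with 6 or 7 members called in each setting that kept all libraries. The direction of the 6 members called by edgeR was the same in every setting. S100b was also called lower with background factors and with 1 fit over all libraries. Slc1a2, too low for the edgeR fit, was higher without NPC replicate 2, which left 4.29 CPM in NPC against 0.828 and 1.27 CPM in ESC. Over all antibodies, the called changes kept their call in 130 cases of a gene under another setting and lost it in 29, none with a change of direction. For H3K27me3 the 6 called members became 2 with DESeq2, 3 at a minimum count of 30 and 2 to 7 when 1 library was left out. Over IgG, the 3 H3K27me3 members called in ESC became 1 at a log2 fold of 2, with library totals and without a model, 0 in a fit with IgG only and 1 to 3 with 1 library left out, and the 3 in NPC became 0 in those same settings and 0 to 3 with 1 library left out. The 1 H3K4me3 member called in ESC became 0 at a log2 fold of 2, with library totals and without a model, and stayed at 1 with either library left out. SUZ12 went from 0 to 1 with library totals and at a minimum count of 30, where 11.3% and 24% of tested windows were called higher. The 1 MTF2 member, Aqp4, became 0 with background factors and the replicate block and 0 to 1 with 1 library left out, and DESeq2, which gave Aqp4 no adjusted p, called 0 of 2. The 4 differences between H3K27me3 and SUZ12 became 1 with DESeq2 and 1 to 4 with 1 library left out, and the 0 between JARID2 and MTF2 became 0 to 1. The share of all windows called also moved with the setting. Apart from the windows DESeq2 and the higher minimum left untested, the cause of these shifts was not tested.

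Same-numbered libraries did not pair: the correlation of their deviations over 2 pairs was -0.0055 (SUZ12), 0.013 (JARID2), -0.177 (MTF2), -0.203 (H3K27me3) and -0.0816 (H3K4me3). With the replicate block, 6 members were called for H3K4me3, 5 for H3K27me3, 0 for each PRC2 subunit, 4 for H3K27me3 against SUZ12 and 0 for JARID2 against MTF2. With crossed numbers, chosen after seeing the data, 6 were called for H3K27me3 and 1 for MTF2.

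A change of direction under another setting was met only at values that had not been called. With library totals these were SUZ12 at Slc1a3 (0.19) and Aqp4 (0.17), JARID2 at Aldh1l1 (0.011), MTF2 at Slc1a2 (0.12), H3K27me3 at Nes (-0.040), H3K27me3 against SUZ12 at Slc1a3 (-0.44) and JARID2 against MTF2 at Gfap (-0.32). With background factors they were SUZ12 at Vim (-0.043), Prom1 (-0.041) and S100b (-0.14), JARID2 at Aldh1l1 (0.10), MTF2 at Vim (-0.18), Gfap (-0.21), S100b (-0.27) and Aldh1l1 (-0.18), and H3K27me3 at Slc1a3 (0.32) and Aldh1l1 (0.13). At a minimum count of 30 they were SUZ12 (0.47) and MTF2 (0.47) at Nes, H3K27me3 at Slc1a3 (0.63) and Aldh1l1 (0.57), and JARID2 against MTF2 at Nes (-0.21) and Gfap (-0.79). With non-overlapping windows they were JARID2 at Aldh1l1 (0.0049) and H3K27me3 at Slc1a3 (0.15) and Aldh1l1 (0.0075), with 1 fit over all libraries H3K27me3 at Slc1a3 (0.13), and with the replicate block JARID2 at Aqp4 (-0.024). With 1 library left out the ranges spanned 0 for SUZ12 at Vim (-0.10 to 0.42), Prom1 (-0.21 to 0.47), Slc1a3 (-0.28 to 0.087), S100b (-0.39 to 0.44) and Aqp4 (-0.28 to 0.025). They did so for JARID2 at Nes (-0.28 to 0.42), Aqp4 (-0.28 to 0.34) and Aldh1l1 (-0.47 to 0.24), for MTF2 at Slc1a2 (-0.62 to 0.18) and Gfap (-0.0046 to 0.37), and for H3K4me3 at Prom1 (-0.47 to 1.26). For H3K27me3 they did at Nes (-0.55 to 0.64), Slc1a3 (-0.73 to 0.41) and Aldh1l1 (-0.50 to 0.23), and for H3K27me3 against SUZ12 at Nes (-0.15 to 1.05) and Slc1a3 (-0.63 to 0.52). For JARID2 against MTF2 they did at Slc1a2 (-0.70 to 0.070), Gfap (-0.16 to 0.21) and Aldh1l1 (-0.66 to 0.038).

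The PRC2 subunits had 6 to 69 counts per member and library and IgG had 12 to 59, and H3K4me3 had as few as 3 at Slc1a2. Each IgG group is 1 library, so its own spread was assumed and not measured. Each antibody group has 2.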
